A study of Rattus norvegicus with 6 samples.

Results

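The 10 genes described here encode the proteins with which astrocytes keep the fluid around neurons in balance: the glutamate transporters Slc1a2 and Slc1a3, glutamine synthetase (Glul), the potassium channel Kcnj10, the water channel Aqp4, the endfoot protein Mlc1, the connexins Gja1 and Gjb6, the bicarbonate cotransporter Slc4a4 and the folate enzyme Aldh1l1. They were taken from a table of 19382 genes by their symbols, and all 10 had a row and were tested. RNA was sequenced from rat brain tissue in 6 libraries. The 3 HI libraries came from rats labelled with hypoxic-ischemic treatment, and per the series text SD rats (the strain as written there) underwent ischemia-hypoxia for 2.5 h at 7 days of age. The 3 control libraries are labelled with control treatment only. The labels give no brain region, no time between injury and sampling, no sham procedure, no sex and no age of the controls, and no library is labelled with echinatin, the compound in the title of the series. Whether each library is a separate animal is not stated either. The p-values therefore weigh differences against the spread among these 6 samples, part of which may be technical.

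Astrocytes clear synaptic glutamate through Slc1a2 (GLT-1) and Slc1a3 (GLAST), and Glul turns it into glutamine that neurons take back. In the developing brain Slc1a3 is already present in radial glia, while Slc1a2 increases as astrocytes mature. Potassium released by active neurons enters astrocytes through Kcnj10 (Kir4.1), water moves through Aqp4 at endfeet on blood vessels, and both spread through a network coupled by Gja1 (connexin 43) and Gjb6 (connexin 30).

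Tissue content differed between libraries of the same group. Libraries held 13922663 to 14927469 reads. Values are given as CPM, read counts scaled to library size with TMM factors, which correct for library composition. Emx1, a regulator of the dorsal forebrain, was measured at 41.0, 50.6 and 4.27 CPM in controls 1, 2 and 3 and at 0.736 to 2.18 CPM in HI, so control 3 lay nearer to the HI libraries than to the other controls. The 10 choroid plexus markers, none at 0 in all libraries, summed to 16.8, 2182 and 7.86 CPM in controls 1, 2 and 3 and to 183, 8181 and 15340 CPM in HI 1, 2 and 3. Control 3, HI 2 and HI 3 held 1425 to 1904 reads of Y-linked genes, and the other libraries at most 3. Over all 14959 genes tested 6.83% rose and 7.04% fell at an edgeR adjusted p below 0.05. Of the regional lists, cortical and hippocampal markers fell in 4 of 9 genes, cerebellar and hindbrain markers in 1 of 4 tested, and hypothalamic and thalamic markers neither rose nor fell in any of 8 tested by edgeR, with 4 at an unadjusted p below 0.05. Neuron markers fell in 5 of 10 genes, reactive astrocyte genes rose in 10 of 18 tested, microglia markers in 8 of 10 and endothelial and mural markers in 1 of 10, and 0 of 9 tested choroid plexus markers passed, with 1 at an unadjusted p below 0.05. The 24 other astrocyte markers summed to 2921 to 4805 CPM in controls and 5148 to 6890 CPM in HI, and 1 rose and 3 fell, around a median of 0.39 (log2 fold change). Clu, a secreted chaperone and 1 of the 24, stood at 168 to 296 CPM in controls and at 241, 911 and 1337 CPM in HI 1, 2 and 3, highest in the HI libraries with most choroid plexus markers. Without Clu, a choice made after seeing the data, the sums were 2624 to 4612 CPM in controls and 4237 to 5553 CPM in HI, and control 3 lay above HI 2. Astrocyte markers were present in all 6 libraries.

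**Figure D1:**
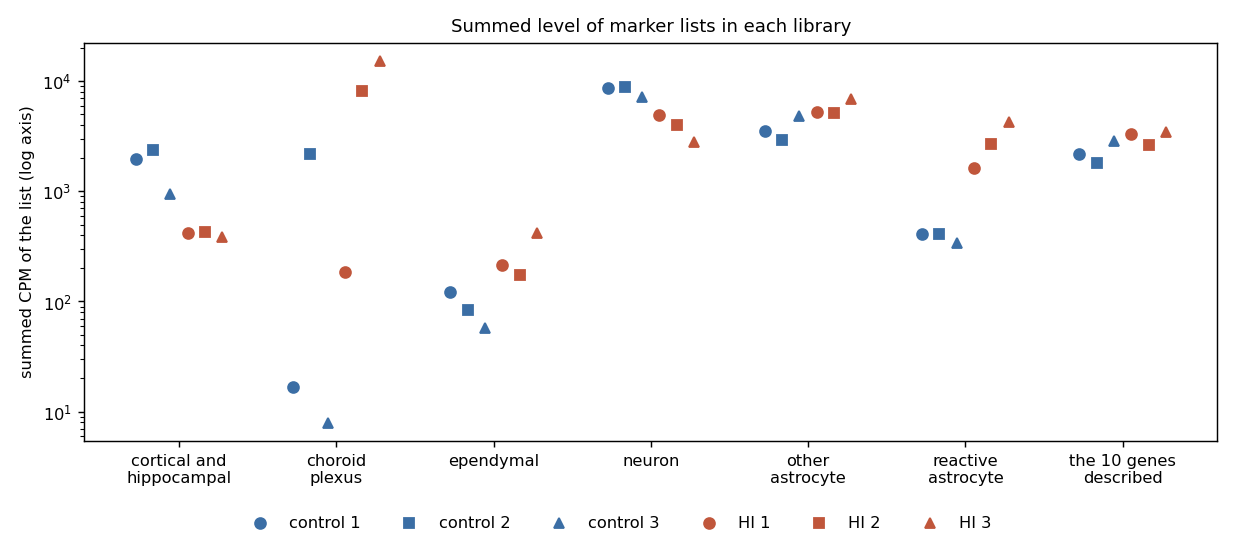
Summed CPM of 7 gene lists (log axis) in each of the 6 libraries, with controls in blue, HI in red and the replicate number as symbol. Controls 1 and 2 stood apart in cortical and hippocampal markers, and control 2, HI 2 and HI 3 in choroid plexus markers (2182, 8181 and 15340 CPM).

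HI was compared with control to ask how transcripts of astrocyte homeostasis differ after the injury. Of the 10 genes 1 rose, Aqp4, and 1 fell, Kcnj10 (edgeR quasi-likelihood test, p adjusted by Benjamini-Hochberg, threshold 0.05). Over all 14959 genes tested 13.9% passed (6.83% higher and 7.04% lower in HI), so a count of 2 in 10 is near the background. At an unadjusted p below 0.05 there were 4 of the 10, against 36.5% of all genes, and DESeq2 called 4 of the 10, against 25.3% of the genes it tested. The groups did not overlap for 3 of the 10 genes, Aqp4, Mlc1 and Kcnj10, and for 42.3% of all genes. The log2 fold changes spanned -1.45 (Slc1a2) to 1.22 (Gjb6), with 7 positive and 3 negative and a median of 0.24, against 0.04 over all genes. In tissue RNA fewer cells of a type and less RNA per cell cannot be told apart.

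**Figure D2:**
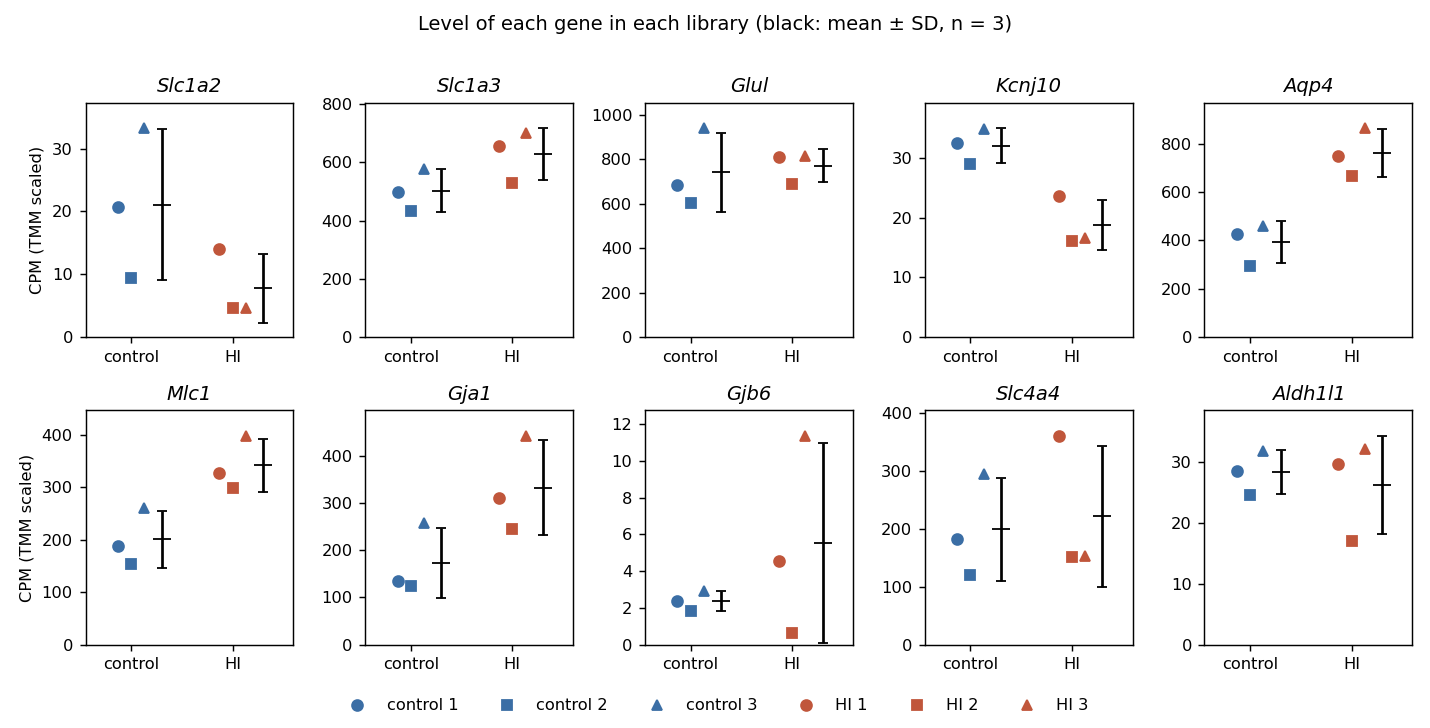
CPM of each of the 10 genes (linear axes from 0, 1 scale per gene) in 3 control and 3 HI libraries, with mean ± SD in black. All HI values of Aqp4 and Mlc1 lay above all controls, all HI values of Kcnj10 lay below, and the groups overlapped for the other genes.

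Among the glutamate genes none passed the test. Slc1a2 stood at 20.7, 9.35 and 33.3 CPM in controls 1, 2 and 3 and at 14.04, 4.56 and 4.60 CPM in HI 1, 2 and 3. HI 2 and HI 3 lay below all controls, whereas HI 1 lay above control 2. Reads were 273, 127 and 445 for controls against 210, 71 and 76 for HI, and the control levels themselves differed 3.56-fold. The log2 fold change was -1.45 ± 0.61 (SE, edgeR adjusted p = 0.140). It was -0.27 with the level of choroid plexus markers as a covariate, and -2.21 (edgeR adjusted p = 0.0418) without HI 1, the only 1 of 18 other settings that called it (adjusted p from 0.0418 to 0.540).

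Slc1a3, the transporter shared with radial glia, stood at 497, 434 and 578 CPM in controls 1, 2 and 3 and at 657, 530 and 701 CPM in HI 1, 2 and 3. HI 1 and HI 3 lay above all controls and HI 2 below control 3. Means were 503 ± 72.6 and 629 ± 88.8 CPM (SD, n = 3 per group), a log2 difference of 0.32 ± 0.16 (SE, edgeR adjusted p = 0.201). Of the radial glia and immature astrocyte genes 2 of 12 rose and 0 fell, Thbs4 and Nes (the latter with shared reads), with a median of 0.70 and summed levels of 1689 to 2379 CPM in controls and 2081 to 2405 CPM in HI. Their part in the level of Slc1a3 was not tested. Glul, which makes glutamine from glutamate, stood at 684, 601 and 942 CPM in controls and 812, 688 and 816 CPM in HI. The highest value was that of control 3, and the HI values lay within the control range. Its log2 fold change of 0.06 ± 0.19 (SE) changed sign with the libraries used, at -0.32 against control 3 alone and 0.23 without control 3.

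Kcnj10 and Aqp4, both found in the astrocyte endfoot, went in opposite directions. Kcnj10, the inward rectifier that takes up potassium, stood at 32.6, 29.0 and 34.9 CPM in controls and 23.7, 16.1 and 16.7 CPM in HI. All 3 HI values lay below all 3 controls. It fell to 0.585 of the control level (32.2 ± 2.96 against 18.8 ± 4.21 CPM, SD, n = 3 per group). The log2 fold change was -0.77 ± 0.18 (SE, edgeR adjusted p = 0.0422). Aqp4 stood at 425, 295 and 461 CPM in controls and at 752, 668 and 866 CPM in HI, with no overlap. It rose 1.94-fold (393 ± 87.3 against 762 ± 99.2 CPM, SD, n = 3 per group). The log2 fold change was 0.95 ± 0.20 (SE, edgeR adjusted p = 0.0333).

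Mlc1, which binds Hepacam at astrocyte junctions and endfeet, stood at 187, 154 and 259 CPM in controls and at 326, 299 and 398 CPM in HI. The groups were apart, with control 3 nearest to the HI libraries. Its log2 fold change of 0.77 ± 0.22 (SE) did not pass with edgeR (adjusted p = 0.0591) and passed with DESeq2 (adjusted p = 9.1e-03). Its partner Hepacam stood at 54.3, 40.1 and 75.8 CPM in controls and 96.5, 93.0 and 120 CPM in HI (log2 fold change 0.86 ± 0.24 SE, edgeR adjusted p = 0.0581).

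The calls for Aqp4 and Kcnj10, like the number of calls over all genes, depended on single libraries. Over all genes 2074 calls became 0 without control 1 or HI 2, 1 without control 2 and 644 without HI 3. Without control 3 there were 1694. With the presence of Y-linked reads as a covariate there were 774, and with choroid plexus level 42. The directions of Aqp4 and Kcnj10 did not change in any of 18 other settings. Leaving out control 1, control 2, HI 2 or HI 3 ended both calls (edgeR adjusted p from 0.0740 to 0.109 for Aqp4 and from 0.109 to 0.127 for Kcnj10), and leaving out control 3 ended that of Kcnj10 (edgeR adjusted p = 0.0822). Among libraries without Y-linked reads Aqp4 stood at 425 and 295 CPM in controls against 752 CPM in HI 1, and among those with them at 461 CPM against 668 and 866 CPM. Kcnj10 stood at 32.6 and 29.0 against 23.7 CPM and at 34.9 against 16.1 and 16.7 CPM. With the presence of such reads as a covariate the log2 fold changes were 0.90 (edgeR adjusted p = 0.0653) and -0.73 (edgeR adjusted p = 0.0791). With choroid plexus level as the covariate they were 1.18 (edgeR adjusted p = 0.0877) and -0.50 (edgeR adjusted p = 0.153). Against control 3 alone, the control low in Emx1, they were 0.70 and -0.92 (edgeR adjusted p = 0.394 and 0.368). Over all 18 settings the adjusted p ran from 1.7e-04 to 0.394 for Aqp4, with 11 calls, and from 3.1e-03 to 0.368 for Kcnj10, with 7 calls.

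Ependymal cells line the ventricles and also make Aqp4 and Gja1. Their 10 markers summed to 57.3 to 122 CPM in controls and 173 to 416 CPM in HI, none was at 0 in all libraries, and 3 rose and 0 fell. Their part in the levels of Aqp4 and Gja1 was not tested. Oligodendrocyte lineage cells also use Kcnj10. Of their 9 markers 0 rose and 1 fell, Mbp, a protein of myelin, with sums of 822 to 1208 CPM in controls and 662 to 744 CPM in HI. Their part in the level of Kcnj10 was not tested.

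**Figure D3:**
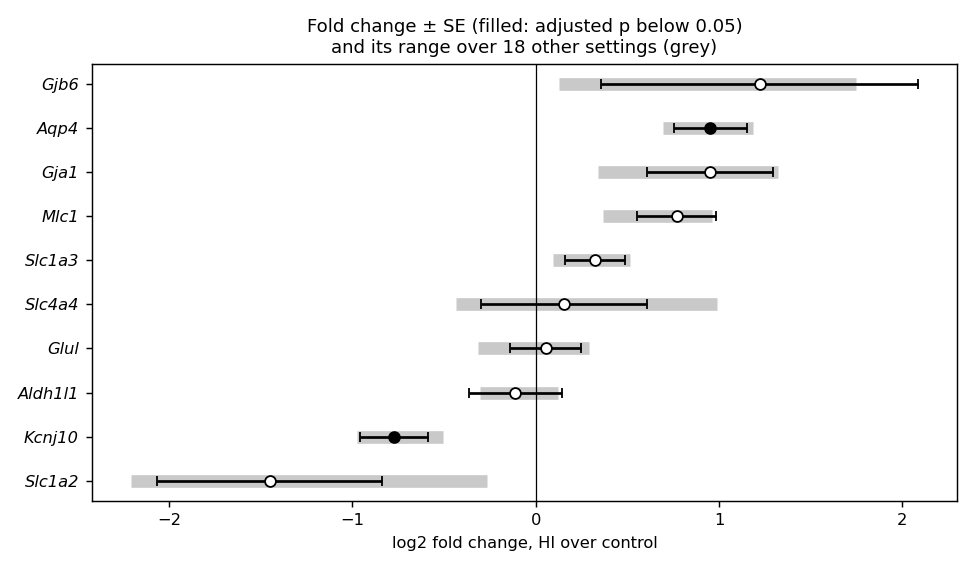
Log2 fold change of each gene (points, ± SE; filled where the edgeR adjusted p is below 0.05) and its lowest to highest value over 18 other settings (grey bars). The bars of Glul, Slc4a4 and Aldh1l1 cross 0, and that of Slc1a2 runs from -2.21 to -0.27.

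The start regions of Kcnj10, which fell, and Mlc1, whose HI values lay above all controls, are printed. Both have a single start in the RefSeq table (assembly GRCr8), which held 16 starts for the 10 genes. Gja1, Slc4a4 and Aldh1l1 also have a single start, but their groups overlapped and they are not printed. The 250 bases before each start were searched on both strands for a motif of nuclear factor I, a regulator of glial genes (TTGGC), the core of HIF sites (ACGTG), a STAT motif (TTCNNNGAA) and a TATA box (TATAAA). Capitals mark matches, which in both stretches are of nuclear factor I, with no other motif overlapping.
Kcnj10, chr13:87334260-87334509, strand +: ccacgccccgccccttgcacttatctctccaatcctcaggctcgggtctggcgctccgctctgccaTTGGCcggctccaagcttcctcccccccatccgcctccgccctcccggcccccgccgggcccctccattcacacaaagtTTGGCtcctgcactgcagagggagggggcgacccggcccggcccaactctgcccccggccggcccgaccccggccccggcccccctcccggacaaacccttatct
Mlc1, chr7:121946699-121946948, strand -: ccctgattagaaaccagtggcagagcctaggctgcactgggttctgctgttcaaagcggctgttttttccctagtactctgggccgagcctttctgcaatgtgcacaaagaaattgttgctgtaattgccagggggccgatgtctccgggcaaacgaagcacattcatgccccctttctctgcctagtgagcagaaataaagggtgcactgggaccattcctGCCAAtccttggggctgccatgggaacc
Starts of 1 gene can share sequence, as the 3 of Slc1a3 do, so motifs were counted per gene with a match at any start. A gene with more starts has more windows for a match. The 10 genes had 16 starts and all 27457 genes had 33469, so the 10 had more windows per gene. The nuclear factor I motif was in 7 of the 10 genes and in 42.3% of all 27457, so Kcnj10 and Mlc1, with opposite differences, share a match that is common. The HIF core was in 3 of 10 (Slc1a2, Slc1a3 and Gja1) against 18.1% of all genes, the STAT motif in 0 of 10 against 8.19% and the TATA box in 0 of 10 against 14.1%. These are counts of letters in the stated window, not binding sites. The gene counts do not tell which start was used.

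The 2 connexins of the astrocyte network differed in how evenly they varied. Gja1 stood at 136, 124 and 257 CPM in controls and at 311, 244 and 443 CPM in HI. Control 3 lay above HI 2, and HI 1 and HI 3 lay above all controls. Its log2 fold change was 0.95 ± 0.34 (SE, edgeR adjusted p = 0.101). It was 1.32 (edgeR adjusted p = 0.0422) without control 3 and 0.34 (edgeR adjusted p = 0.685) against control 3 alone, the highest of 18 settings, and DESeq2 gave an adjusted p of 0.0327.

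Gjb6, which appears later in astrocyte maturation than Gja1, had few reads, with 31, 25 and 39 for controls against 68, 10 and 188 for HI. As CPM these were 2.35, 1.84 and 2.92 in controls and 4.55, 0.643 and 11.4 in HI. HI 2 lay below and HI 1 and HI 3 above all controls. The log2 fold change of 1.22 ± 0.86 (SE, edgeR adjusted p = 0.345) came with an HI spread of 98.4% of the mean, against 22.8% in the controls. It was 0.13 without HI 3 and 1.75 without HI 2. With limma-voom it was 0.49, and with the replicate number as a block 0.63. Leptomeningeal fibroblasts also carry Gjb6 and Gjb2. Their 10 markers summed to 209, 463 and 278 CPM in controls and to 373, 440 and 1046 CPM in HI. The sums and Gjb6 were both highest in HI 3, but control 2 was the highest control in the sums and the lowest in Gjb6. Pdgfra (with shared reads), also counted as an oligodendrocyte lineage marker, gave 167, 168 and 234 CPM of the control sums. In HI it gave 165, 120 and 153.5 CPM. Of the fibroblast markers 0 of 9 tested rose or fell by edgeR, 0 of them at an unadjusted p below 0.05. The part of these fibroblasts in the level of Gjb6 was not tested.

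Slc4a4 (NBCe1), which carries sodium and bicarbonate and so buffers acid, stood at 182, 119.5 and 295 CPM in controls and at 361, 151 and 152 CPM in HI. HI 1 was the highest library and control 2 the lowest, and HI 2 and HI 3 lay between controls 2 and 1. Its log2 fold change of 0.15 ± 0.45 (SE, edgeR adjusted p = 0.826) was -0.40 without HI 1, 0.53 without control 3 and 0.99 (edgeR adjusted p = 0.0913) with the choroid plexus covariate. Aldh1l1, a folate enzyme used as a marker of most astrocytes, stood at 28.6, 24.7 and 31.8 CPM in controls and at 29.6, 17.0 and 32.2 CPM in HI. HI 2 was the lowest of all 6 and the other HI libraries lay in or just above the control range. The log2 fold change of -0.11 ± 0.25 (SE, edgeR adjusted p = 0.776) was 0.12 without HI 2, and with total counts in place of TMM factors it was 0.085.

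Ratios between genes of a library do not depend on library scaling, and 5 were compared, each with an exact two-sided permutation test over the 6 libraries, which cannot give a p below 0.1. The log2 ratio of Aqp4 to Kcnj10 reads was 3.704, 3.34 and 3.72 in controls and 4.99, 5.37 and 5.70 in HI. The groups were apart, with a difference of 1.76 (3.39-fold, exact permutation p = 0.1, 0.167 adjusted over the 5 ratios). Means were 3.59 ± 0.21 against 5.35 ± 0.36 (SD, n = 3 per group). All HI values of Aqp4 lay above and all of Kcnj10 below the controls, so this separation and its p were fixed. They add no support to the calls of these genes. The ratio of Slc1a2 to Slc1a3 was -4.58, -5.53 and -4.12 in controls and -5.55, -6.85 and -7.24 in HI. Control 2 and HI 1 nearly met, and the difference was -1.80 (0.287 of the control ratio, exact permutation p = 0.1, 0.167 adjusted).

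The ratio of Glul to Slc1a2 was 5.29 ± 0.63 in controls and 6.85 ± 0.87 in HI (SD, n = 3 per group, exact permutation p = 0.2), with HI 1 below control 2. The ratio of Gjb6 to Gja1 overlapped, with -6.11 ± 0.31 against -6.62 ± 1.68 (SD, n = 3 per group, exact permutation p = 0.8), and its difference of -0.52 became 0.42 without HI 2. The edgeR fold change was larger for Gjb6 than for Gja1 (1.22 against 0.95, log2). The difference of mean log2 CPM was smaller (0.50 against 0.99). Gfap, the filament protein of reactive astrocytes, was set against Aldh1l1. That ratio was 2.33 ± 0.22 in controls and 5.84 ± 0.75 in HI (SD, n = 3 per group), a difference of 3.51 with no overlap (exact permutation p = 0.1, 0.167 adjusted). Gfap itself stood at 146, 143 and 136 CPM in controls and at 937, 1403 and 2306 CPM in HI (edgeR adjusted p = 0.0196). Aldh1l1 varied far less, from 17.0 to 32.2 CPM over the 6 libraries. The separation of this ratio and its p were therefore fixed by Gfap, and they add no support to it.

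**Figure D4:**
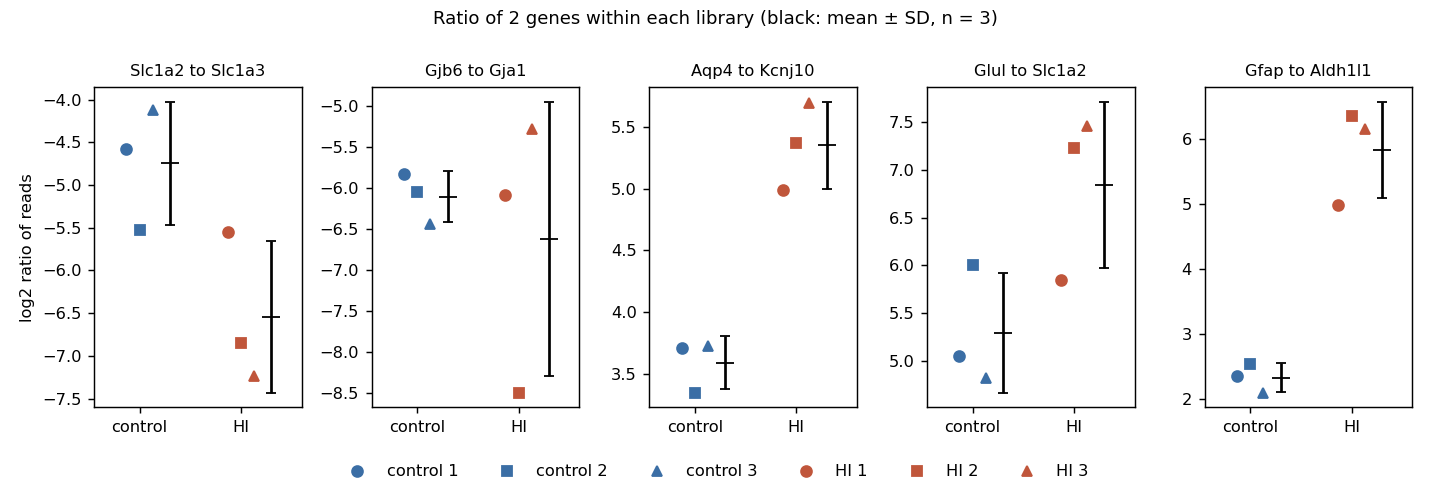
Log2 ratio of the reads of 2 genes within each of the 6 libraries (points) with mean ± SD (black), 1 axis per ratio. The Aqp4 to Kcnj10 and Gfap to Aldh1l1 ratios of HI lie well above the controls, and Slc1a2 to Slc1a3 is at -5.53 in control 2 and -5.55 in HI 1.

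The levels were also set against the mean of the 24 other astrocyte markers, an alternative chosen after seeing the data. On that scale Aqp4 differed by 0.78, Gja1 by 0.79, Mlc1 by 0.60 and Kcnj10 by -0.98 on the log2 scale, each without overlap of the groups. The groups overlapped for Slc1a2 (-1.65), Slc1a3 (0.13), Glul (-0.11), Gjb6 (0.30), Slc4a4 (-0.07) and Aldh1l1 (-0.35). These are differences of mean log2 CPM and not edgeR fold changes. For Gjb6 that measure gave 0.50 before the markers were set against it, where edgeR gave 1.22. Most of the step from 1.22 to 0.30 therefore came from the change of measure. For the other genes the 2 measures were close before that scaling. Mlc1 varied little between libraries of a group there, with SDs of 0.07 in controls and 0.07 in HI. The share of all genes without overlap was not computed on that scale. As CPM it was 42.3%, so the separation is not read as particular to these genes. The list itself was uneven: Slc14a1, a urea transporter, rose from 22.3 ± 12.1 to 84.3 ± 29.2 CPM and the deiodinase Dio2 fell to 0.106 of the control level (SD, n = 3 per group). The proteoglycan Gpc5 and the acyl-CoA synthetase Acsl6 fell to 0.456 and 0.582 of it.

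Neighbouring genes of each pathway, listed by function, were counted in the same fit. Over all genes tested 6.83% rose and 7.04% fell, so a count of 1 in a list of 13 or 14 genes is near the background. In glutamate and glutamine handling 0 of 18 rose and 4 fell, and the list's median was -0.33 on the log2 scale. The neuronal glutamate transporter Slc1a1 stood at 59.8, 60.1 and 60.9 CPM in controls and fell to 39.4, 40.6 and 31.6 CPM in HI (edgeR adjusted p = 0.0260). The neutral amino acid transporter Slc1a4 fell to 0.710 and the glutamate receptors Grm3 and Grm5, both found on astrocytes as well as neurons, to 0.282 and 0.430 of the control level. Neuron markers moved with these genes: 0 of 10 rose and 5 fell, with sums of 7216 to 8840 CPM in controls and 2779 to 4892 CPM in HI. Their part in the result was not tested.

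In potassium and sodium handling 0 of 13 rose and 1 fell, the G-protein-gated channel Kcnj9 (to 0.308 of the control level), with a median of 0.02. Atp1b2, the sodium pump subunit of astrocytes, stood at 418, 327 and 455 CPM in controls and 508, 556 and 517 CPM in HI, and Atp1b1, the more neuronal subunit, at 1326, 1373 and 1364 against 1072, 1038 and 719 CPM. Neither passed (edgeR adjusted p = 0.106 and 0.0945), with the groups apart in both. Among water channels and the dystrophin complex that anchors Aqp4 0 of 14 rose and 1 fell, Agrn, a matrix proteoglycan (to 0.626 of the control level), with a median of 0.22. Gap junction genes had 2 of 10 that rose and 0 that fell, the arterial connexins Gja5 and Gja4, from 0.499 ± 0.0926 to 3.81 ± 1.76 CPM and from 4.51 ± 0.878 to 9.90 ± 2.67 CPM (SD, n = 3 per group), with a median of -0.03. Gja5 had few reads, with 8, 6 and 6 for controls against 32, 88 and 60 for HI.

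In acid-base and lactate transport 0 of 17 rose and 2 fell. These were Slc16a7, the lactate carrier of neurons, from 90.4 ± 15.5 to 30.0 ± 6.31 CPM, and carbonic anhydrase Car4, from 4.93 ± 0.27 to 1.39 ± 0.33 CPM (SD, n = 3 per group), with a list median of 0.00. Of 13 folate and one-carbon genes 3 rose and 0 fell, Mthfd2 1.93-fold, Mthfd1 1.49-fold and Mthfs 3.11-fold, with a median of 0.54, while Aldh1l1 itself did not pass. Aqp1 and Folr1 stand in these lists and are also among the choroid plexus markers. Neither passed, with log2 fold changes of 3.57 and 3.16 (edgeR adjusted p = 0.213 and 0.144). The cation channel Trpv4 and the carbonic anhydrase Car14 are not among those markers. Trpv4 stood at 0.606, 3.24 and 0.973 CPM in controls and 1.605, 17.2 and 25.8 CPM in HI, and Car14 at 0.303, 6.405 and 0.2995 against 0.602, 24.5 and 40.7 CPM. Both were highest in HI 3, HI 2 and control 2, the libraries with most choroid plexus markers, and neither passed (edgeR adjusted p = 0.0825 and 0.186). The part of choroid plexus in these levels was not tested.

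**Figure D5:**
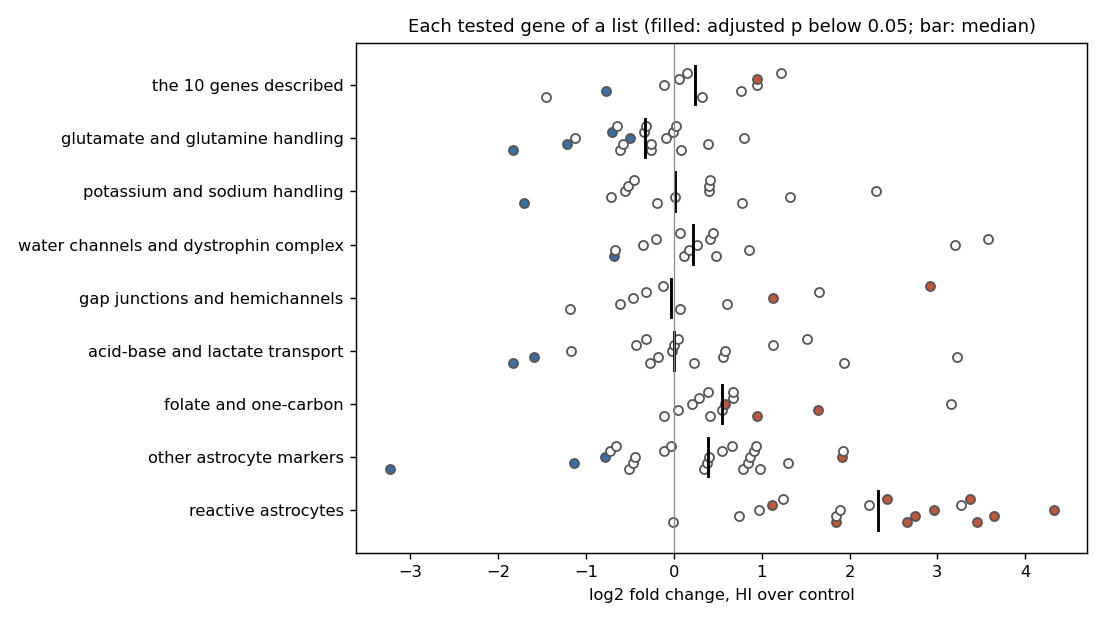
Log2 fold change of every tested gene in 9 lists (points; red rose, blue fell, white did not pass; black bars are list medians). Reactive astrocyte genes lie to the right (17 positive, 1 negative, median 2.32), as do folate and one-carbon genes (12 and 1, median 0.54), while glutamate genes lie mostly to the left (4 and 14, median -0.33).

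By the distance between log2 CPM profiles over the 6 libraries, each centred on its mean, the genes nearest to Aqp4 among 14552 were Pnpla7 (with shared reads), Fbxl7 and Apoe, the main lipoprotein of astrocytes. Nearest to Gja1 were LOC108348727 and S100b, an astrocyte calcium-binding protein, and to Mlc1 the fatty acid transporter Slc27a1. Nearest to Kcnj10 were Chn1 and Rasa2, regulators of small GTPases, and to Slc1a2 the citrate transporter Slc13a5. The nearest distances were largest for Slc1a2 and Gjb6, at 0.827 and 1.19 against 0.123 to 0.369 for the other 8 genes. The distance is not scaled and grows with a gene's own spread, which was widest for Slc1a2 and Gjb6. These distances therefore do not show that the 2 genes lack a match. Likeness of profiles is a description over 6 libraries of 2 groups.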

How the data were processed

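RNA of rat brain tissue was sequenced in 6 libraries. The authors deposited 1 table of estimated counts, unscaled per the file headers. The tools were StringTie 2.2.1, HISAT2 2.1.0 and SAMtools 1.10, with assembly Rnor 6.0, per the submitters' processing notes. How reads were counted, on which annotation and with which strand setting, was not stated (not given in the sources used here). Entries that were not whole to within 1e-09 made up 8.87%, in 2410 genes with shared reads, and none of the 10 genes described was among them. Counts were rounded.

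Genes were filtered with filterByExpr (minimum count 10), scaled by TMM and tested by quasi-likelihood in edgeR 4.0.16 (R 4.3.3), with group as the only term and Benjamini-Hochberg adjustment over 14959 genes (threshold 0.05). The common biological coefficient of variation was 0.275. SEs come from the F statistic. The fitting code was run on simulated counts with less variation than these libraries. That check does not show how often the fit finds or misses differences in these data. Alternatives used DESeq2 1.42.0, limma-voom (limma 3.58.1), other scalings and filters, covariates, a replicate block and left-out libraries. Ratios added 0.5 reads, and profiles used log2 CPM with a prior count of 2.

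The members and the 20 other lists (244 entries, 2 without a row) were chosen with earlier results of these data known. Named are the 10 genes, the genes of the ratios, up to 4 genes per list by smallest p, and up to 3 nearest genes with a mean of at least 1 CPM. Atp1b2, Gjb2, Car14 and Clu, outside this rule, were chosen after their values were seen. From the cell type and region marker lists 2 genes were removed after the fits for a reason unrelated to their values and are not reported here. The lists of pathway genes lost none.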

Additional observations from a re-analysis of the deposited data

How the results depend on the processing

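Of 14959 genes 2074 passed with edgeR, 52 of them in the other lists, and 2 of the 10 genes. DESeq2 called 4156 genes (4 of the 10 and 97 in the lists), limma-voom 1371, the choroid plexus covariate 42 (0 and 0), the Y-linked covariate 774 (0 and 25), and control 3 as the lone control, a setting chosen after seeing the data in which that library is assumed to vary like HI, 0 (0 and 0, with 2018 genes at an unadjusted p below 0.05). Leaving out 1 library gave 0 to 3689 genes, 0 to 3 of the 10 and 0 to 88 in the lists. It gave 0 genes without control 1 or HI 2 (3962 and 4175 at an unadjusted p below 0.05), 1 without control 2, 644 without HI 3, 1694 without control 3 and 3689 without HI 1. The share of calls that were higher in HI went from 49.2% to 64.3% under upper-quartile scaling (median of all genes 0.14 in place of 0.04, log2) and to 74.7% under total counts (median 0.23).

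Upper-quartile factors and total counts called Aqp4 and Mlc1 but not Kcnj10 (edgeR adjusted p = 0.0527 and 0.0641). Signs changed only for Glul, Slc4a4 and Aldh1l1, none of them called in any setting. Glul was at -0.028 and -0.10 without controls 1 and 2 (leaving out 1 library gave -0.10 to 0.23), -0.32 against control 3 alone and -0.11 relative to other astrocyte markers. Slc4a4 was at -0.13 without control 2, -0.40 without HI 1 (leaving out 1 library gave up to 0.53), -0.44 against control 3 alone and -0.070 relative to the markers. Aldh1l1 was at 0.085 with total counts, 0.078 with the choroid plexus covariate and 0.12 without HI 2 (leaving out 1 library gave -0.28 to 0.12). Leaving out 1 library gave differences of -2.30 to -1.45 for Slc1a2 to Slc1a3, -1.19 to 0.42 for Gjb6 to Gja1, 1.59 to 1.94 for Aqp4 to Kcnj10, 1.25 to 2.05 for Glul to Slc1a2 and 3.25 to 3.94 for Gfap to Aldh1l1. The cause of these changes was not tested.

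With the replicate number as a block, 1723 genes passed, and of the 10 these were Aqp4, Mlc1 and Gja1 (edgeR adjusted p = 0.0297, 0.0330 and 0.0292) and not Kcnj10 (edgeR adjusted p = 0.0543). Deviations of same-numbered libraries correlated at 0.239, 0.0731 and -0.146 across genes, so the numbers were not taken to pair the samples. Of the 10 genes, depth was lowest for Gjb6 and Slc1a2, whose smallest libraries held 10 and 71 reads.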
